A study of Mus musculus with 18 samples.

Results

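The genes described here are the Wnt ligands, their receptors and the secreted proteins that hold Wnt signalling back, 46 of the 46583 genes measured in the mouse cochlea. The rule that chose them uses gene names and no measured value, although it was set with earlier results of these data known: every gene whose symbol begins with Wnt, Fzd, Sfrp or Dkk and a number, plus Notum, its antisense RNA Notumos, Wif1, Axin2, Lef1, Lgr5, Lgr6, Lrp5 and Lrp6. They comprise 19 ligands, 10 Frizzled receptors, 4 co-receptors or Lgr receptors, 10 secreted inhibitors, 1 antisense RNA and 2 genes that respond to the pathway. All 46 were found in GENCODE release M21 on GRCm38.

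Cochleae of mice were taken at 4 weeks of age and each was separated into base, middle and apex, the axis along which the organ resolves high to low sound frequency. Control mice, whose genotype is given as WT, were compared with Fst conditional knock-out (cKO) mice. Fst encodes follistatin, which is secreted and blocks activins. Tissue of several cochleae was pooled for each region and genotype, and 3 technical libraries were made from the RNA of each pool, so that 6 groups hold 18 libraries but n = 1 pool each. Because the libraries of a group come from 1 pool, p-values between libraries measure technical spread and not the spread between animals. The labels do not name the Cre driver, the number of animals, their sex or the part of Fst that was removed.

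Wnt proteins are secreted lipid-modified ligands that bind a Frizzled receptor together with the co-receptor Lrp5 or Lrp6, which stabilises beta-catenin and lets it act with Tcf and Lef factors on target genes such as Axin2. Secreted antagonists act at 3 points: Sfrp proteins and Wif1 bind the ligands, Dkk1 and Dkk2 occupy the Lrp co-receptors, and Notum removes the lipid that the ligands need. In the cochlea the pathway is known for its part in the growth of the sensory epithelium, where Lgr5 marks a group of supporting cells, and, through Wnt5a and Frizzled receptors, in the orientation of hair cells.

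Library totals ran from 24446760 to 33732726 counts in the 18 libraries. A count of 0 allows up to 3 counts, or 0.0889 to 0.123 CPM, the count relative to the library total. Fst stood at 23.4, 25.1 and 24.8 CPM in the control apex and 9.67, 9.55 and 10.3 in the cKO apex, at 6.82, 6.58 and 5.73 and 2.71, 2.88 and 3.38 in the middle and at 2.06, 2.04 and 2.41 and 1.97, 1.89 and 1.73 in the base. It was lower in the cKO apex (log2 fold change -1.29 ± 0.063, adjusted p = 1.51e-18), lower in the cKO middle (-1.104 ± 0.099, adjusted p = 2.38e-11) and without a call in the base (-0.22 ± 0.15, adjusted p = 0.308; edgeR's quasi-likelihood test with Benjamini-Hochberg adjustment). The middle difference of Fst was −0.74 with limma on log2(FPKM + 1), under the threshold of 1. All 8 hair cell, 8 supporting cell, 5 fibrocyte and 7 stria vascularis marker genes had counts in every group. Pools also differed in markers of tissue around the cochlea: the summed CPM of 9 osteoblast and osteocyte genes ran from 642 to 652 in the control apex to 1934 to 1996 in the control base, that of 7 central neuron genes reached 113 to 119 in the cKO middle against 8.96 to 9.42 in the control middle, and that of 8 airway genes reached 359 to 364 in the cKO apex against 23.5 to 25.96 in the control apex. In bulk tissue fewer cells of a type and less RNA per cell cannot be told apart.

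Levels were compared between genes on the deposited FPKM, which is scaled by transcript length and by library depth. Wnt5a, a ligand that mostly acts without beta-catenin, led the ligands at a mean of 48.2 FPKM over the 18 libraries (40.5 to 56.8). It made up 42.1% to 51.5% of the summed FPKM of the 19 ligands in a library. Wnt2b followed at 18.1 and Wnt7b at 8.41 FPKM. Both act mainly through beta-catenin. Of the receptors, Fzd9 had 94.2 FPKM (77.9 to 117), 49.2% to 62.9% of the summed Frizzled FPKM and more than any other of the 46 genes. Fzd7 and Fzd6 came next at 16.9 and 12.9 FPKM. Lrp6 and Lrp5, the co-receptors, had 38.2 and 20.5 FPKM. The Lgr proteins, receptors for R-spondins, were lower, with Lgr5 at 10.5 and Lgr6 at 1.42 FPKM. Among the secreted inhibitors Dkk3, a Dkk relative that is not known as a classical Lrp antagonist, led at 55.9 FPKM, before Sfrp4 at 34.9 and Notum at 14.97. The 2 response genes Axin2, a negative feedback gene of the pathway, and Lef1, a transcription factor that carries beta-catenin to DNA, had 16.3 and 7.003 FPKM.

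**Figure D1:**
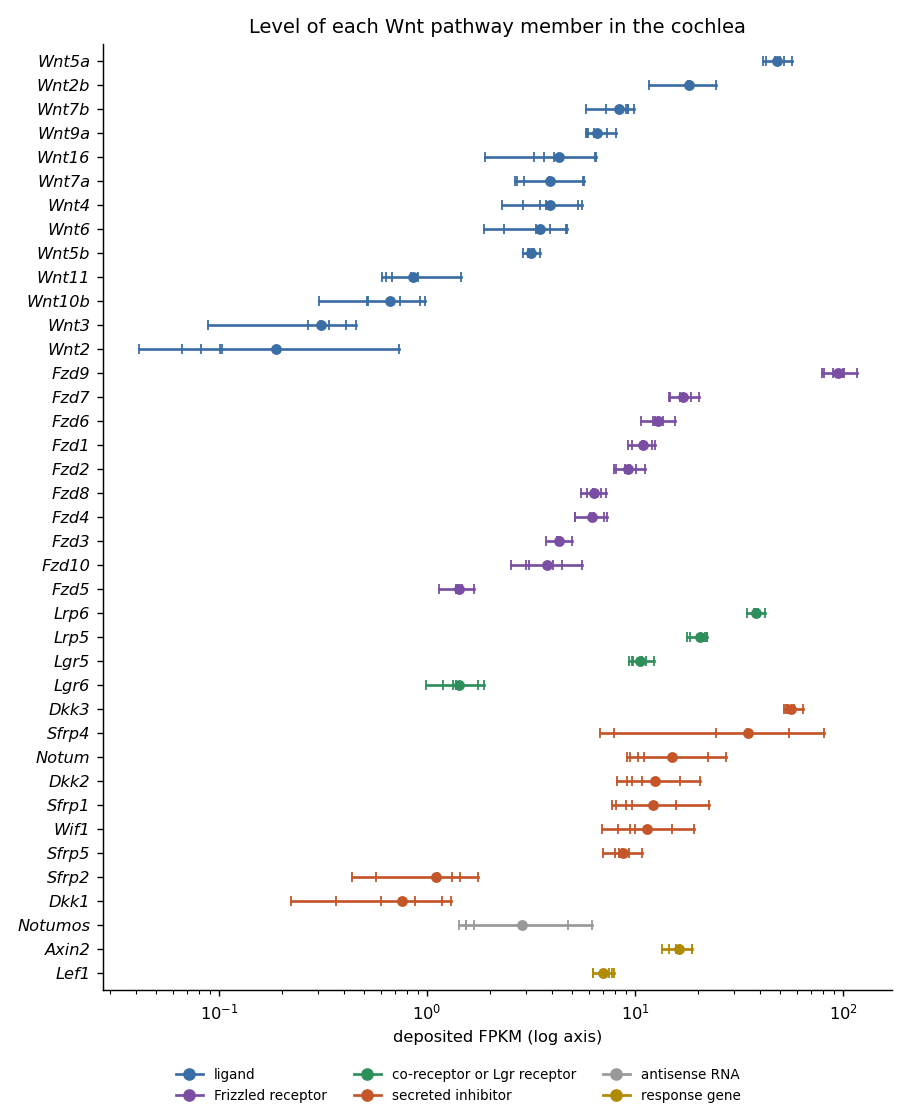
Deposited FPKM (log axis) of the 39 members that passed the filter on low counts, grouped by role. Dots are means over 18 libraries, bars span the 6 group means and ticks mark each of them. Fzd9 lies highest, and Sfrp4 and Wnt2 span the widest ranges.

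At the low end, Dkk4 had 0 counts in all 18 libraries, which allows up to 0.123 CPM in the shallowest of them. Wnt1, Wnt10a, Wnt3a, Wnt8a, Wnt8b and Wnt9b had 4 to 67 counts summed over all libraries. These 7 members did not pass the filter on low counts and were not tested between libraries. The later fits over the 6 pools left out only Dkk4, Wnt3a and Wnt8a. The 39 that passed were kept because some group expressed them, so their counts of calls describe expressed members and not the whole set. A gene was called where the adjusted p was under 0.05 and the absolute log2 fold change at least 1, and the error after a log2 value is the standard error of the fit over 3 libraries per group.

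Along the axis of the control cochlea, several inhibitors (Notum, Sfrp1 and, against the middle, Dkk2, Wif1 and Sfrp2) and the ligand Wnt7a were higher in the apex, while the inhibitors Sfrp4 and Dkk1 and the ligands Wnt16, Wnt10b and Wnt6 were higher in the base. From base to apex, 5 of the 39 members tested rose and 5 fell, 12.8% each way, against 2.28% of all 17901 genes tested called higher and 3.2% called lower. From middle to apex, 8 members rose (20.5%, against 2.08% of all genes) and 1 fell (2.56%, against 3.22%). From base to middle, 1 rose (2.56%, against 1.53%) and 5 fell (12.8%, against 1.2%). The members' median log2 difference was 0.043, 0.28 and −0.24 in these 3 comparisons, beside 0.0049, 0.0058 and 0.0032 over all genes. These comparisons share pools, so 1 high or low pool enters 2 of them. Both counts of members that rose to the apex include Notum and Notumos, whose reads over shared bases cannot be told apart.

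In the cKO cochlea, 3 members were higher in the apex than in the base (7.69%, against 2.79% of all genes) and 1 was lower (2.56%, against 3.81%). Between apex and middle, 3 were higher (7.69%, against 1.67%), Notum and Notumos among them, and 4 lower (10.3%, against 2.93%). Between middle and base, 1 was higher (2.56%, against 1.92%) and 1 lower (2.56%, against 1.35%). Sfrp4 and Notumos were called in the same direction between apex and base in both genotypes.

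**Figure D2:**
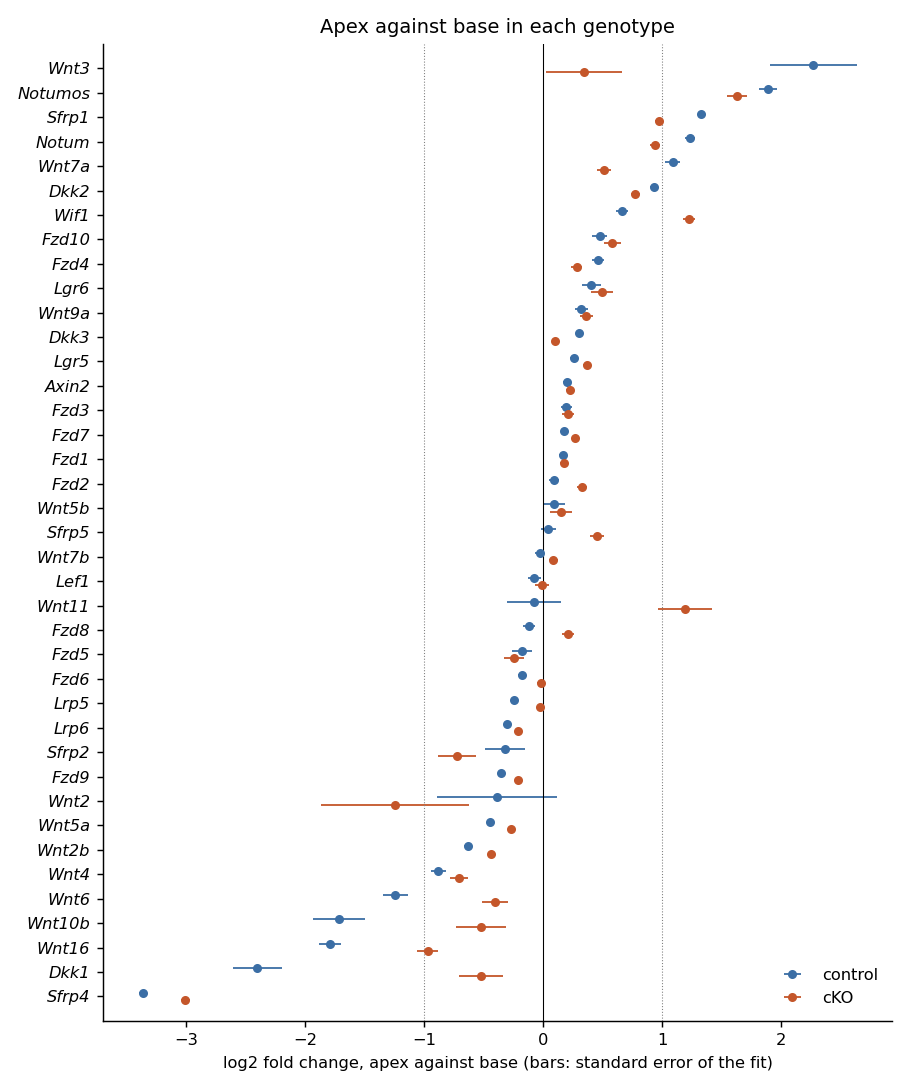
Log2 fold change of apex against base for 39 members in control (blue) and cKO (orange), with bars of 1 standard error and dotted lines at the threshold of 1 in either direction. Notumos and Sfrp4 lie past the threshold in both genotypes, whereas Dkk1, Wnt10b and Wnt3 lie past it in the control and inside it in the cKO.

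Wnt16, a ligand expressed in joints and bone among other tissues, was lower in the apex of the control than in its base. Control values of Wnt16 were 9.09, 9.32 and 9.78 CPM in the control base, 5.02, 5.48 and 5.55 in the control middle and 3.25, 2.61 and 2.64 in the control apex. Values of Wnt16 in cKO mice were 9.01, 9.24 and 9.78 CPM in the cKO base, 5.5997, 6.32 and 6.37 in the cKO middle and 5.02, 4.96 and 4.66 in the cKO apex. The 3 control groups did not overlap, and the cKO middle and apex libraries lay close together. The apex was lower than the base in the control (-1.79 ± 0.095, adjusted p = 6.04e-18) and by less than the fold threshold in the cKO (-0.97 ± 0.088). Over the 6 groups Wnt16 was ordered as the summed CPM of 7 cartilage and joint surface genes, which was 1278 to 1321 in the control base, 679 to 687 in the control middle and 375 to 379 in the control apex. In the cKO that sum was 1153 to 1169, 857 to 869 and 455 to 462 in the same order of regions. Matn3 of that list had 0 counts in the control middle, control apex and cKO apex. The order was not particular to cartilage, since the summed CPM of 6 meninges genes took it too but for the base pools. That sum was 358 to 365, 258 to 267 and 109 to 115 from control base to apex. In the cKO it was 405 to 408, 333 to 342 and 129 to 134. The part of cartilage or meninges in the Wnt16 difference was not tested.

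Wnt7a, a ligand of epithelial cells, was higher in the apex. The control libraries gave 7.97, 7.58 and 8.14 CPM in the control base, 8.17, 7.75 and 7.87 in the control middle and 17.4, 18.3 and 16.9 in the control apex. Its cKO libraries gave 10.3, 11.6 and 11.9 CPM in the cKO base, 8.97, 8.48 and 8.03 in the cKO middle and 16.9, 15.8 and 16.6 in the cKO apex. Every apical library of either genotype lay above every basal and middle one. The control apex exceeded the base (1.09 ± 0.063, adjusted p = 6.47e-17) and the middle (1.104 ± 0.063, adjusted p = 5.88e-17). In the cKO the same steps were 0.51 ± 0.061 and 0.95 ± 0.061, under the fold threshold, and Wnt7a in the cKO base was above the control base by 0.51 ± 0.07. On log2(FPKM + 1) with limma both control steps fell short of the threshold, at 0.86 and 0.88.

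Wnt6 and Wnt10b, ligands that act mainly through beta-catenin, were higher in the control base. Wnt6 stood at 8.13, 7.9003 and 7.69 CPM in the control base, 3.74, 3.65 and 4.002 in the control middle and 2.9000, 3.62 and 3.999 in the control apex. The cKO pools gave 6.19, 6.08 and 6.31 CPM in the cKO base, 8.25, 7.68 and 7.77 in the cKO middle and 4.28, 4.295 and 5.81 in the cKO apex. The control base stood above both other control regions, and the cKO middle overlapped it. The control apex was lower than the base for Wnt6 (-1.24 ± 0.11, adjusted p = 2.75e-12), as was the control middle (-1.09 ± 0.10, adjusted p = 1.51e-10). Wnt10b was at 2.09, 2.04 and 1.76 CPM in the control base, 1.04, 1.07 and 0.897 in the control middle and 0.419, 0.835 and 0.626 in the control apex. Its cKO values were 1.43, 1.62 and 1.42 CPM in the cKO base, 1.76, 1.78 and 2.13 in the cKO middle and 1.12, 1.18 and 0.888 in the cKO apex. In the control apex Wnt10b was below the base (-1.72 ± 0.22, adjusted p = 2.55e-08). Its step from base to middle passed only just (-1.002 ± 0.20, adjusted p = 0.000115), and the call was lost without scaling factors (−0.98), under a replicate block (−0.99975), and without control base replicate 1 (−0.95), control base replicate 2 (−0.98) or control middle replicate 3 (−0.93). All 4 of these steps fell short with limma on log2(FPKM + 1), at −0.98 and −0.77 for Wnt6 and −0.61 and −0.39 for Wnt10b, and on log2(FPKM + 0.1) those from base to middle, at −0.98 and −0.81. The same order of control regions held for the osteoblast and osteocyte genes, whose values stand beside Dkk1 in a later paragraph.

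Wnt3, another beta-catenin ligand, was measured at few counts. Wnt3 stood at 0.161, 0.5504 and 0.0409 CPM in the control base, 1.004, 0.723 and 0.932 in the control middle and 1.43, 1.57 and 1.08 in the control apex. The control base libraries held 5, 17 and 1 counts, and the other groups 14 to 45 per library. Control apex and middle libraries lay above all 3 basal ones. Both steps were called (2.27 ± 0.36, adjusted p = 1.9e-06 for apex against base, 1.699 ± 0.39, adjusted p = 0.000818 for middle against base), and both were lost with limma on log2(FPKM + 1), at 0.42 and 0.27. In the cKO, Wnt3 stood at 0.541, 0.693 and 1.04 CPM in the cKO base, 1.19, 1.33 and 1.04 in the cKO middle and 1.04, 0.815 and 1.11 in the cKO apex and the step from base to apex was 0.34 ± 0.32, adjusted p = 0.377.

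Wnt5a was lowest in the apex of both genotypes. In the control it averaged 248 ± 3.3, 231 ± 1.2 and 190.5 ± 2.3 CPM (SD, n = 3 libraries) from base to apex. The cKO means were 233 ± 3.4, 219.5 ± 1.1 and 198 ± 2.3 CPM. All apical libraries lay below all others. The differences of -0.45 ± 0.018 in the control and -0.27 ± 0.019 in the cKO were under the fold threshold. An antisense gene, Gm2670, shares 358 exon bases with Wnt5a and had 1663 counts over all libraries against 114199 for Wnt5a.

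Wnt11, a ligand linked to cell movement, differed along the axis in the cKO. It was at 0.657, 0.808 and 0.962 CPM in the cKO base, 1.01, 1.22 and 1.81 in the cKO middle and 1.82, 1.81 and 2.07 in the cKO apex. The cKO apex was above the cKO base (1.19 ± 0.23, adjusted p = 3.36e-05), and its 3 libraries lay above all 3 of the base. In the control it stood at 1.25, 0.939 and 1.15 CPM in the control base, 0.658, 0.792 and 0.771 in the control middle and 1.01, 1.15 and 1.15 in the control apex, and the apex and base libraries overlapped (-0.078 ± 0.23, adjusted p = 0.802). On log2(FPKM + 1) the cKO step fell short at 0.58.

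Of the 10 Frizzled receptors, 1 was called along the control axis, where 1.2% to 3.22% of all genes were called each way per comparison. So short a list cannot be set apart from those shares. Fzd10 stood at 12.1, 11.3 and 12.8 CPM in the control base, 7.89, 7.23 and 8.21 in the control middle and 18.8, 17.01 and 16.8 in the control apex. In the cKO Fzd10 stood at 9.32, 8.66 and 9.08 CPM in the cKO base, 9.86, 9.79 and 8.86 in the cKO middle and 13.3, 14.4 and 13.8 in the cKO apex. In both genotypes the apical libraries were above all others of their genotype. The control apex exceeded the middle (1.13 ± 0.066, adjusted p = 1.54e-16), a call lost on log2(FPKM + 1) at 0.89. The steps between apex and base were 0.47 ± 0.061 in the control and 0.58 ± 0.07 in the cKO. Fzd9, the receptor with the highest FPKM, averaged 208 ± 4.6, 171 ± 3.4 and 171 ± 2.1 CPM from base to apex in the control. In the cKO it averaged 241 ± 2.3, 189 ± 2.2 and 213 ± 1.6. The base was the highest region in each genotype, and the apex was below it by -0.35 in the control and -0.22 in the cKO on the log2 scale. Fzd7 differed by 0.17 ± 0.026 between control apex and base, and Fzd6 by -0.18 ± 0.027.

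None of the 4 co-receptors and Lgr receptors was called along the axis of either genotype by edgeR at the fold threshold, although several passed by adjusted p alone. Of all genes 1.2% to 3.81% were called each way in these comparisons, and 0 of 4 cannot be set apart from that. Lgr5 stood at 39.7, 36.8 and 41.8 CPM in the control base, 46.4, 46.8 and 48.3 in the control middle and 50.5, 49.9 and 47.8 in the control apex. The cKO values were 41.7, 40.2 and 40.9 CPM in the cKO base, 42.5, 40.95 and 40.4 in the cKO middle and 53.6, 54.2 and 54.8 in the cKO apex. Apex exceeded base by 0.26 ± 0.034 in the control and 0.37 ± 0.034 in the cKO. The control middle overlapped the control apex, whereas the cKO apex lay above both other cKO regions. Lgr6 averaged 8.01 ± 0.56, 5.88 ± 0.21 and 11.1 ± 0.33 CPM from base to apex in the control and 7.11 ± 0.28, 8.41 ± 1.2 and 10.3 ± 0.84 in the cKO. Lrp6 and Lrp5 differed by -0.304 ± 0.018 and -0.25 ± 0.024 between control apex and base.

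Notum, the extracellular enzyme that inactivates Wnt ligands (ENSMUSG00000042988, chr11:120653788-120661175, - strand), was concentrated in the apex. Control values of Notum were 16.04, 15.6 and 15.996 CPM in the control base, 14.9, 13.8 and 13.4 in the control middle and 39.6, 39.7 and 38.1 in the control apex. Values of Notum in cKO mice were 15.9, 16.2 and 16.1 CPM in the cKO base, 13.7, 14.5 and 14.2 in the cKO middle and 30.9, 32.9 and 31.2 in the cKO apex. The apex stood above every base and middle library in either genotype, and base and middle lay close together. The control apex was higher than the base (1.23 ± 0.041, adjusted p = 4.42e-24) and the middle (1.44 ± 0.042, adjusted p = 1.47e-25). In the cKO the steps were 0.94 ± 0.044, just under the fold threshold, and 1.16 ± 0.042, adjusted p = 1.46e-22.

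Notumos is an antisense transcript at the same locus (ENSMUSG00000053613, chr11:120659157-120661815, + strand). Its exons share 708 bases with those of Notum, 29.4% of the exon bases of Notum and 26.6% of its own. The control libraries gave 3.79, 4.02 and 4.42 CPM in the control base, 3.32, 3.63 and 3.64 in the control middle and 15.8, 15.5 and 16.04 in the control apex. Its cKO libraries gave 3.69, 3.62 and 3.93 CPM in the cKO base, 3.65, 4.12 and 3.76 in the cKO middle and 12.02, 11.98 and 11.6 in the cKO apex. Like Notum, Notumos was highest in the apex of both genotypes. Its step was larger between control apex and base (1.89 ± 0.074, adjusted p = 8.28e-22) and between cKO apex and base (1.63 ± 0.083, adjusted p = 1.35e-18). Its cKO base and middle libraries overlapped, whereas those of Notum were higher in the base. Its counts equalled 25.7%, 25.3% and 40.3% of those of Notum in the control base, middle and apex, and 23.3%, 27.2% and 37.5% in the cKO. The named kit, TruSeq RNA v2, does not mark strand and the use of strand in counting is not given in the sources used here, so reads of Notum and Notumos over their shared bases cannot be told apart.

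Sfrp1, which binds Wnt ligands outside the cell (ENSMUSG00000031548, chr8:23411502-23449632, + strand), was also highest in the apex. Sfrp1 stood at 36.8, 38.2 and 36.8 CPM in the control base, 32.1, 32.97 and 32.4 in the control middle and 96.6, 98.7 and 99.03 in the control apex. Its cKO libraries gave 35.1, 32.4 and 32.8 CPM in the cKO base, 40.4, 39.97 and 41.9 in the cKO middle and 66.2, 67.2 and 67.98 in the cKO apex. The apical libraries lay above all others of either genotype, and those of the control above those of the cKO. The control apex exceeded the base (1.33 ± 0.027, adjusted p = 1.27e-30) and the middle (1.55 ± 0.027, adjusted p = 3.92e-32). The cKO steps were 0.97 ± 0.031 and 0.71 ± 0.028, under the fold threshold.

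Dkk2, a ligand of the Lrp co-receptors (ENSMUSG00000028031, chr3:132085292-132180304, + strand), and Wif1, which binds Wnt proteins directly (ENSMUSG00000020218, chr10:121033960-121100650, + strand), were also higher in the apex. Dkk2 stood at 36.8, 36.8 and 38.4 CPM in the control base, 28.7, 27.97 and 29.4 in the control middle and 72.8, 74.9 and 75.8 in the control apex. The cKO pools gave 33.2, 31.8 and 35.5 CPM in the cKO base, 33.7, 31.3 and 32.3 in the cKO middle and 59.6, 59.7 and 57.1 in the cKO apex. Its apical libraries lay above all others, with those of the control on top. The control apex exceeded the middle (1.33 ± 0.033, adjusted p = 1.07e-27) and was above the base by 0.93 ± 0.031, under the threshold. Wif1 stood at 20.1, 19.8 and 18.9 CPM in the control base, 14.8, 14.5 and 14.5 in the control middle and 35.01, 29.99 and 32.6 in the control apex. Its cKO values were 17.7, 16.4 and 17.01 CPM in the cKO base, 18.9, 20.9 and 21.5 in the cKO middle and 41.3, 42.2 and 39.2 in the cKO apex. Here the cKO apex lay above the control apex, the reverse of Notum, Sfrp1 and Dkk2. Wif1 was called between control apex and middle (1.11 ± 0.053, adjusted p = 4.73e-19) and between cKO apex and base (1.22 ± 0.051, adjusted p = 5.38e-21). Dkk3, the inhibitor of highest FPKM, averaged 162 ± 4.3, 169 ± 0.94 and 209 ± 2 CPM from base to apex in the control and 169 ± 3.1, 171 ± 2.2 and 186 ± 2.3 in the cKO. Its apical libraries lay above the others of their genotype, by 0.300 ± 0.02 over the base in the control and 0.099 ± 0.021 in the cKO, both under the fold threshold.

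**Figure D3:**
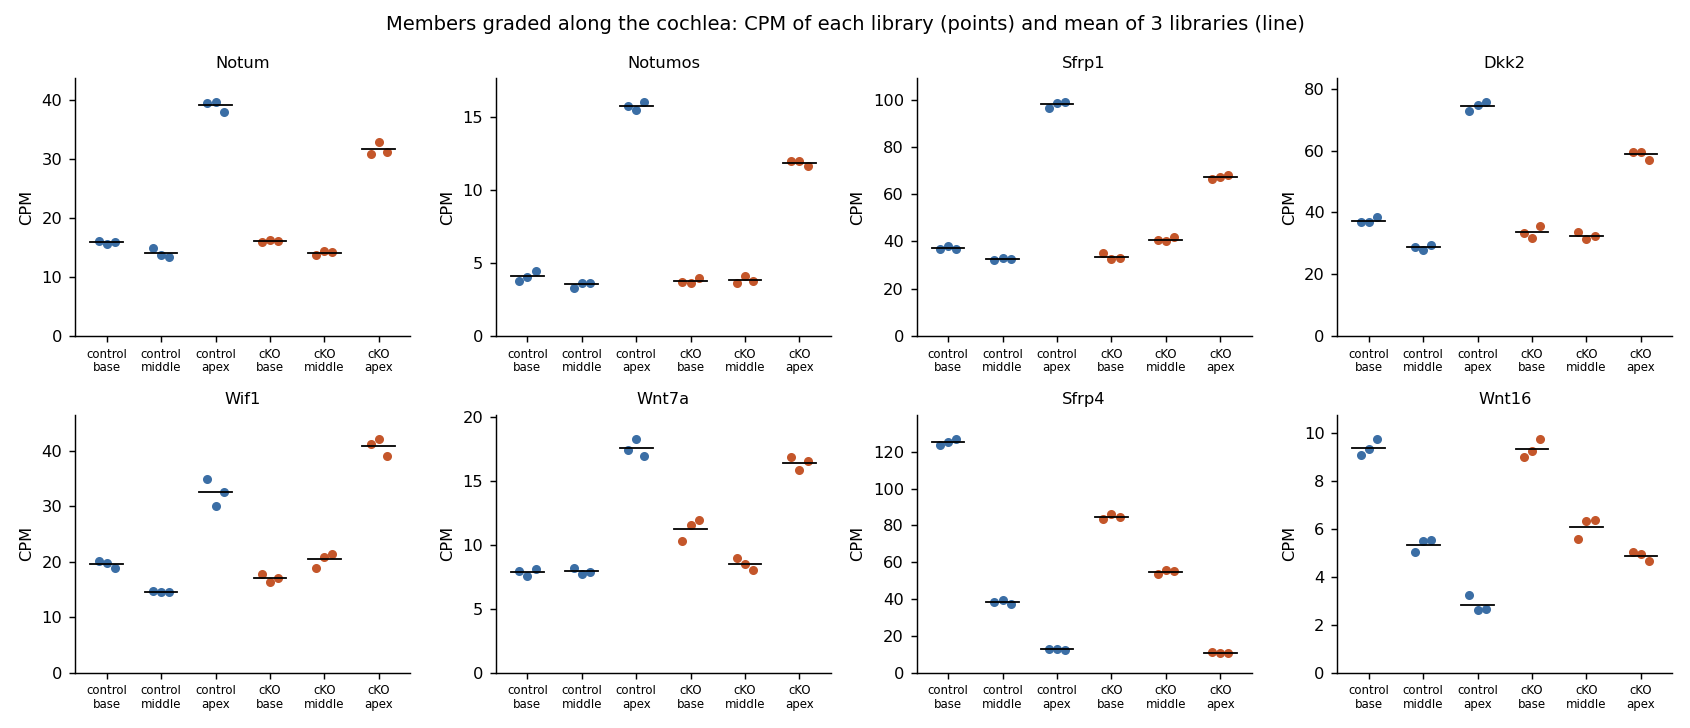
CPM of 8 members in each library (points) with the mean of 3 libraries (line), for base, middle and apex of control (blue) and cKO (orange). Notum, Notumos, Sfrp1, Dkk2, Wif1 and Wnt7a are highest in the apex of both genotypes, and Sfrp4 and Wnt16 are highest in the base.

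Beside these apical inhibitors, the summed CPM of 8 hair cell genes was 154 to 158, 188 to 191 and 488 to 496 from control base to apex. In the cKO it was 148 to 149, 231 to 234 and 437 to 441. That of 8 supporting cell genes was 2738 to 2748, 2750.4 to 2771 and 3555 to 3561 in the control and 2917 to 2921, 2702 to 2734 and 3755 to 3765 in the cKO. The 7 spiral ganglion neuron genes summed to 3886 to 3948, 4829 to 4831 and 5965 to 5991 in the control and to 2477 to 2489, 4290.4 to 4301 and 4386 to 4397 in the cKO. The 5 Schwann cell genes summed to 3189.5 to 3235, 3811 to 3849 and 4586 to 4589.5 in the control and to 2640.2 to 2673, 3912 to 3955 and 3501 to 3542 in the cKO. All 4 lists were highest in the control apex, and 3 of them in the cKO apex, the Schwann cell sum being highest in the cKO middle. No gene of these lists was at 0 in any group, and the part of cell composition in the gradients of the inhibitors was not tested.

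Of Notum, Sfrp1, Dkk2 and Wif1, only Dkk2 and Wif1 have an entry in the RefSeq promoter table (GRCm38.p6). Sfrp2 also has an entry without a match, but it was not highest in the apex of either genotype and is not printed. The letters of Dkk2 and Wif1 are shown because both were highest in the apex. Neither holds a match to the short Tcf and Lef letters searched. Printed are the bases before the GENCODE gene, 5′ to 3′ on the gene's strand, chr3:132085042-132085291 (+) for Dkk2 and chr10:121033754-121033959 (+) for Wif1, with capitals marking a TATAAA match, which in Wif1 lies on the other strand.
Dkk2: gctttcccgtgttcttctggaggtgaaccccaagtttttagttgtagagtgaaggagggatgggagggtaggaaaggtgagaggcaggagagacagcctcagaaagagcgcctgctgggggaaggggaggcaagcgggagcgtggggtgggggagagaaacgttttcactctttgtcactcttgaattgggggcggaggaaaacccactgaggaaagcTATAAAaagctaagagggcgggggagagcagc
Wif1: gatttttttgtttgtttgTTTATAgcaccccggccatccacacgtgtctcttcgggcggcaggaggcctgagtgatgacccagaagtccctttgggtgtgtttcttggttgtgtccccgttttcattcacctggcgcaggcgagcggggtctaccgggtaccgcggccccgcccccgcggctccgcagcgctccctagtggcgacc
The TATAAA match of Dkk2 starts 32 bases before the RefSeq start and that of Wif1 232 bases before it, and 12.4% of all 32851 promoter windows of 250 bases hold these letters on either strand. Searched for Tcf and Lef were the letters CTTTG followed by 2 letters that are each A or T, on both strands. They occurred in the 250 bases before the start of 3 of the 29 members with an entry (Dkk1, Wnt11 and Fzd7), 10.3% against 14.8% of all windows. A match is a run of letters and no evidence of binding.

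Sfrp4 (ENSMUSG00000021319, chr13:19623104-19632994, + strand), a Wnt-binding inhibitor known from bone, ran the other way. Control values of Sfrp4 were 124, 126 and 127 CPM in the control base, 38.5, 39.6 and 37.4 in the control middle and 12.9, 13.1 and 12.2 in the control apex. Values of Sfrp4 in cKO mice were 83.3, 86.4 and 84.3 CPM in the cKO base, 53.6, 55.8 and 55.3 in the cKO middle and 10.9, 10.5 and 10.9 in the cKO apex. No 2 regions of a genotype overlapped. The control apex was lower than the base (-3.37 ± 0.032, adjusted p = 7.99e-41) and the middle (-1.64 ± 0.042, adjusted p = 2.52e-27), and the middle was lower than the base (-1.73 ± 0.025, adjusted p = 1e-34). The cKO apex was lower than the cKO base (-3.01 ± 0.037, adjusted p = 5.87e-37) and middle (-2.35 ± 0.04, adjusted p = 9.53e-33). Over the 6 groups its means declined in the order control base, cKO base, cKO middle, control middle, control apex and cKO apex, and the cartilage sums given beside Wnt16 took that order but for the last 2 groups. The part of cartilage or bone in the Sfrp4 gradient was not tested.

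Sfrp2, a close relative of Sfrp1, was low in the middle of both genotypes. The control libraries gave 2.12, 2.49 and 1.7998 CPM in the control base, 0.415, 0.389 and 0.645 in the control middle and 2.03, 1.705 and 1.69 in the control apex. Its cKO values were 3.12, 3.26 and 2.73 CPM in the cKO base, 0.7904, 0.916 and 0.983 in the cKO middle and 1.896, 1.999 and 1.78 in the cKO apex. Middle libraries held 11 to 33 counts and lay below all basal and apical libraries. In the control the middle was lower than the base (-2.17 ± 0.22, adjusted p = 5.35e-10) and than the apex (apex against middle 1.85 ± 0.23, adjusted p = 2.06e-08). In the cKO the same steps were -1.78 ± 0.18, adjusted p = 1.3e-10 and 1.06 ± 0.19, adjusted p = 2.06e-05, the last lost without cKO middle replicate 1 at 0.98. All 4 steps fell short on log2(FPKM + 1), at −0.75 and 0.57 in the control and −0.82 and 0.56 in the cKO.

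Dkk1, the classical antagonist of Lrp5 and Lrp6 (ENSMUSG00000024868, chr19:30545863-30549665, - strand), was higher in the control base. Dkk1 stood at 2.603, 2.396 and 2.82 CPM in the control base, 0.658, 0.896 and 0.897 in the control middle and 0.629, 0.522 and 0.383 in the control apex. The cKO pools gave 1.74, 2.04 and 2.001 CPM in the cKO base, 2.71, 3.32 and 2.79 in the cKO middle and 1.26, 1.59 and 1.26 in the cKO apex. The control base lay above both other control regions, and in the cKO the middle lay above base and apex. The control apex was lower than the base (-2.402 ± 0.21, adjusted p = 3.8e-12), as was the control middle (-1.69 ± 0.19, adjusted p = 4.28e-09). The cKO apex was lower than the cKO middle (-1.105 ± 0.16, adjusted p = 5.93e-07). These 3 steps fell short with limma on log2(FPKM + 1), at −0.84, −0.68 and −0.52, and the last also on log2(FPKM + 0.1), at −0.995. The 9 osteoblast and osteocyte genes summed to 1934 to 1996, 889 to 893 and 642 to 652 CPM from control base to apex and to 1410.04 to 1415, 1440.1 to 1467 and 871 to 877 in the cKO. No gene of that list was at 0 in any group. In the control it was lower in middle and apex than in the base, as were Dkk1, Wnt6 and Wnt10b, and in the cKO its middle was the highest region. The part of bone cells in these differences was not tested.

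**Figure D4:**
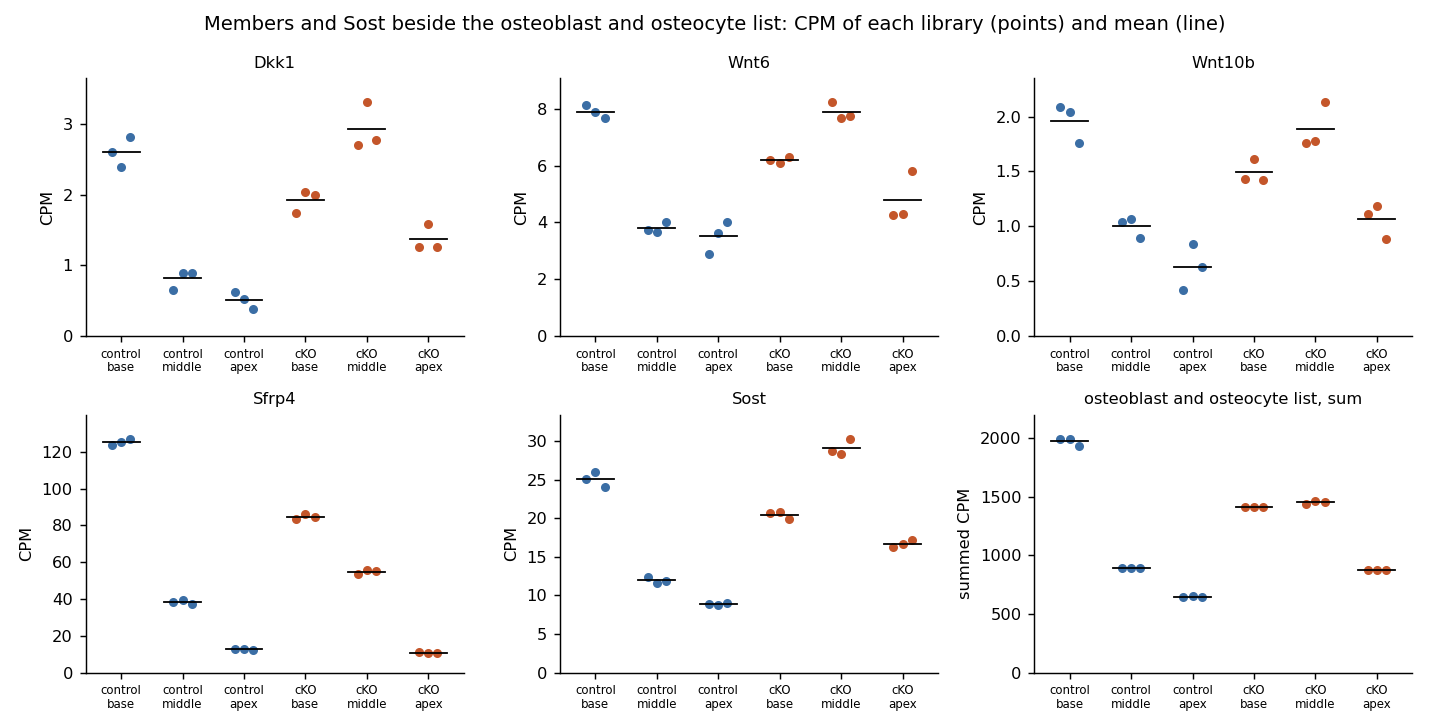
CPM of Dkk1, Wnt6, Wnt10b, Sfrp4 and Sost in each library (points) with the mean of 3 libraries (line), and the summed CPM of 9 osteoblast and osteocyte genes. Dkk1, Wnt6, Wnt10b, Sost and the bone list are high in the control base and the cKO middle and low in the control apex.

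The 2 response genes showed small steps. Axin2 stood at 53.3, 50.5 and 51.05 CPM in the control base, 45.6, 43.6 and 44.3 in the control middle and 61.5, 62.3 and 62.9 in the control apex. Its cKO values were 49.8, 51.2 and 53.8 CPM in the cKO base, 49.4, 48.8 and 49.8 in the cKO middle and 63.1, 63.7 and 58.8 in the cKO apex. The apex was the highest region in both genotypes and no apical library overlapped another region, with differences from the base of 0.200 ± 0.031 in the control and 0.23 ± 0.032 in the cKO. Lef1 averaged 16.2 ± 0.52, 14.1 ± 0.87 and 16.2 ± 1.2 CPM from base to apex in the control and 16.5 ± 0.58, 15.4 ± 0.4 and 16.8 ± 0.53 in the cKO. The step of Lef1 between apex and base did not pass in either genotype (-0.075 ± 0.055, adjusted p = 0.264 and -0.011 ± 0.056, adjusted p = 0.886). An antisense gene, Gm43352, shares 1208 exon bases with Lef1 and had about 630 counts over all libraries against 8228 for Lef1.

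Between the genotypes, few members differed by the fold threshold. In the apex 1 of 39 members was higher in the cKO (2.56%, against 1.49% of all genes) and 0 were lower (against 0.553%). In the middle 3 were higher (7.69%, against 2.15%) and 0 lower (against 0.575%). In the base 1 was higher (2.56%, against 2.51%) and 0 lower (against 0.514%). These shares in apex and base were near those of all genes. DESeq2 called 1, 4 and 1 members in apex, middle and base in either direction, against 1.67%, 2.25% and 2.51% of the genes it tested. By adjusted p alone, 18 members were higher in the cKO apex (46.2%, against 21.8% of all genes) and 10 lower (25.6%, against 18.8%). In the middle 19 were higher by that rule (48.7%, against 17.9%) and 4 lower (10.3%, against 17.7%), and in the base 8 were higher (20.5%, against 16.5%) and 12 lower (30.8%, against 19.6%). Median log2 differences of the members were 0.084 in the apex, 0.13 in the middle and −0.045 in the base, beside 0.0047, −0.00058 and −0.016 over all genes.

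**Figure D5:**
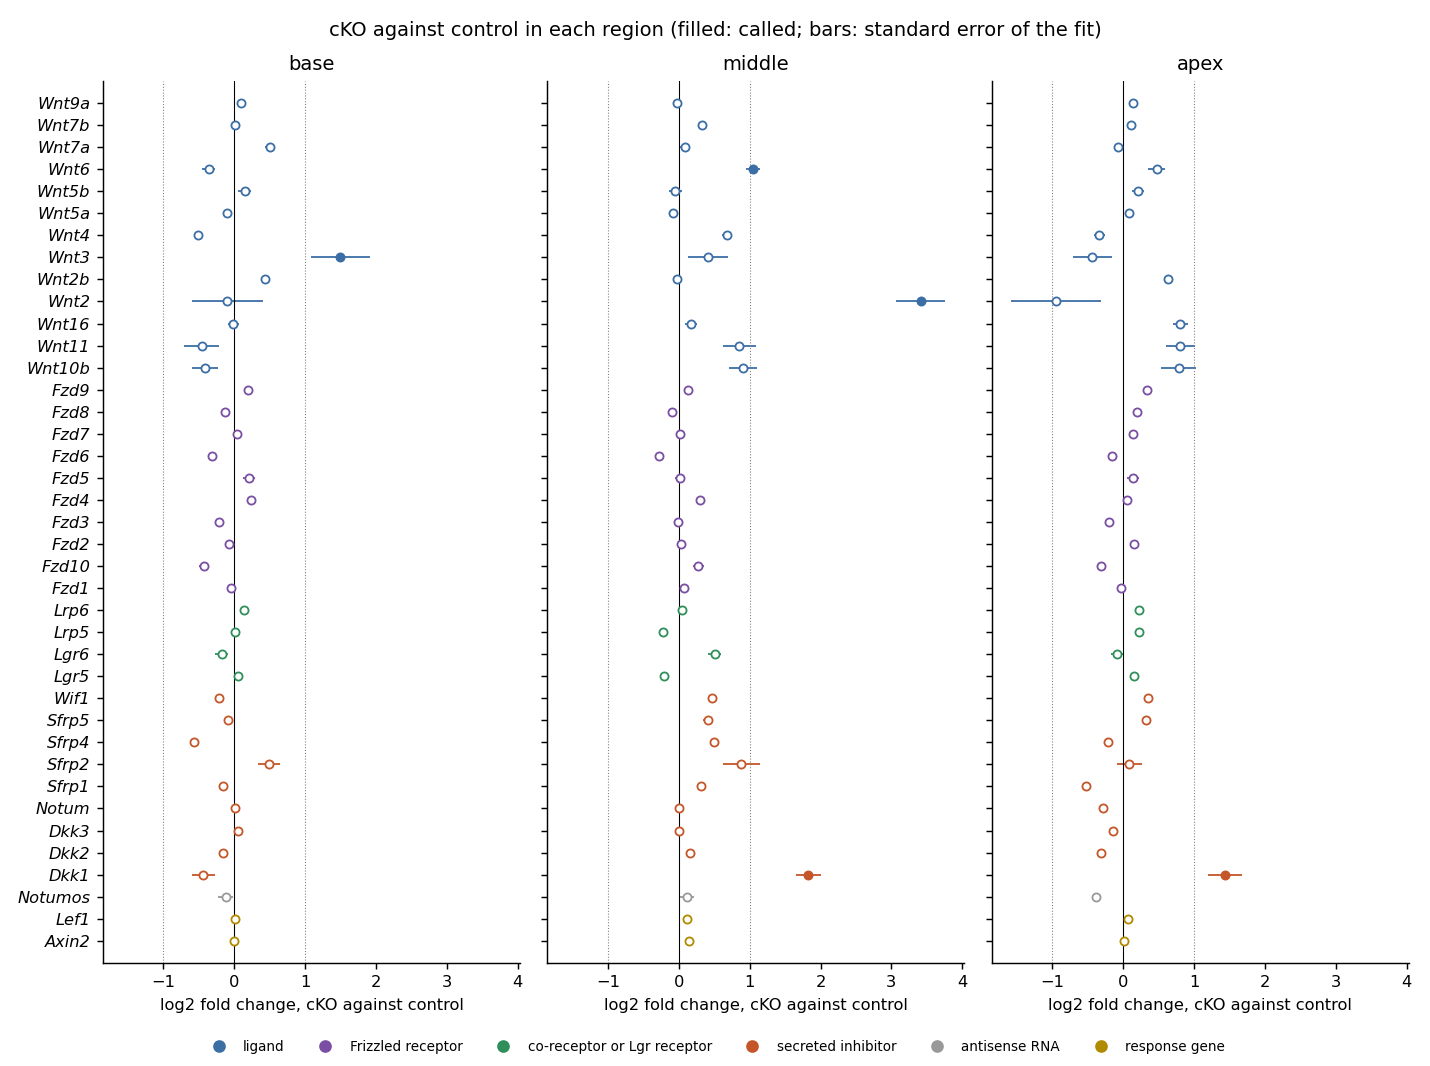
Log2 fold change of cKO against control for 39 members in base, middle and apex, on 1 scale, with bars of 1 standard error, filled symbols for called members and colours by role. Wnt2, Dkk1 and Wnt6 are filled in the middle, Dkk1 in the apex and Wnt3 in the base.

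Dkk1 was higher in cKO than in control tissue, both apical (1.44 ± 0.24, adjusted p = 7.65e-06) and middle (1.83 ± 0.18, adjusted p = 2.14e-10). The 3 apical cKO libraries held 34 to 43 counts and the control ones 11 to 18, and the groups did not overlap in either region. In the base it was -0.44 ± 0.16, below the control. The osteoblast and osteocyte list was higher in the cKO apex and middle and lower in the cKO base, at the sums given above, and its part in the Dkk1 difference was not tested. On log2(FPKM + 1) with limma the Dkk1 differences fell short, at 0.39 in the apex and 0.75 in the middle.

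Wnt6 was higher in the cKO middle (1.04 ± 0.10, adjusted p = 1.92e-10), with no overlap of the groups. With limma it fell short at 0.76 on log2(FPKM + 1) and 0.97 on log2(FPKM + 0.1). Wnt10b differed by 0.902 ± 0.19 in the middle and 0.78 ± 0.25 in the apex, under the fold threshold. Wnt6 and Wnt10b lay below the control in the cKO base, at -0.36 and -0.41.

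Wnt2, a beta-catenin ligand, was raised in a single pool. It stood at 1.46, 1.57 and 1.54 CPM in the cKO middle and 0.0692, 0.138 and 0.207 in the control middle. The other 4 groups ranged from 0.037 to 0.321 CPM. The cKO middle libraries held 49 to 53 counts, and every other library 1 to 10. The difference in the middle was 3.41 ± 0.35, adjusted p = 5.98e-10, and it fell short on log2(FPKM + 1) at 0.70. The 7 central neuron genes summed to 113 to 119 CPM in that pool, 58.003 to 60.7 in the cKO base and between 6.42 and 14.2 in the other 4 groups. Of that list, Chrna6 had 0 counts in the control middle and cKO apex, Chrnb3 in the control base and apex, Tac1 in the cKO base and apex and Onecut1 in the cKO base. The other lists of central tissue did not follow Wnt2. The 9 oligodendrocyte and astrocyte genes summed to 53.8 to 56.7 CPM in the cKO middle against 221 to 226 in the control middle. The 8 cerebellar neuron genes summed to 242 to 245 and 243 to 248 CPM in these pools and were highest in the cKO base at 467 to 479. Of the cerebellar list, Skor2 had 0 counts in every control group and the cKO apex, and Gabra6 in the control base, control apex and cKO apex. The sums there came from other genes of that list. The part of central tissue in the Wnt2 difference was not tested.

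Wnt3 was higher in the cKO base than in the control base (1.49 ± 0.41, adjusted p = 0.00417). The values of 0.541, 0.693 and 1.04 CPM in the cKO and 0.161, 0.5504 and 0.0409 in the control overlapped, and the call was lost without cKO base replicate 3, at 1.20, and on log2(FPKM + 1), at 0.22. In the other regions Wnt3 did not pass (0.41 ± 0.28, adjusted p = 0.277 in the middle and -0.43 ± 0.28, adjusted p = 0.225 in the apex).

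The inhibitors high in the apex differed by less than the fold threshold between the genotypes. In the apex the cKO was below the control for Sfrp1 (-0.52 ± 0.024), Notumos (-0.38 ± 0.06), Dkk2 (-0.32 ± 0.029) and Notum (-0.28 ± 0.036), with no overlap of the 3 libraries of each pool. In the cKO apex the summed CPM of the spiral ganglion neuron, Schwann cell and hair cell genes was also below the control apex, and that of the supporting cell genes above it, at the sums given above, and their part in these differences was not tested. Wif1 was above the control (0.35 ± 0.043). In the base and middle Notum differed by 0.011 ± 0.05 and -0.0036 ± 0.05, and Notumos by -0.12 ± 0.10 and 0.11 ± 0.098, and neither passed. Each of these apical differences rests on 1 pool per genotype.

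Of the leading ligands and receptors, Wnt2b stood at 36.1, 37.8 and 37.9 CPM in the control apex and 57.9, 56.5 and 56.02 in the cKO apex, a difference of 0.63 ± 0.031. It was above the control in the cKO base (0.44 ± 0.027) and not in the middle (-0.025 ± 0.027, adjusted p = 0.521). Fzd9 was above the control by 0.33 ± 0.02 in the apex, 0.13 ± 0.02 in the middle and 0.199 ± 0.019 in the base, while Fzd6 was below it by -0.16 ± 0.029, -0.28 ± 0.029 and -0.32 ± 0.028. Lrp5 and Lrp6 differed by 0.23 and 0.22 in the apex, and Lgr5 by 0.16, -0.21 and 0.05 in apex, middle and base. All lay under the fold threshold. Axin2 and Lef1 did not pass in the apex (0.015 ± 0.03, adjusted p = 0.736 and 0.07 ± 0.055, adjusted p = 0.334). In the base Axin2 gave -0.011 ± 0.033, adjusted p = 0.837 and Lef1 0.0069 ± 0.056, adjusted p = 0.946. In the middle Axin2 was above the control by adjusted p alone (0.14 ± 0.032, adjusted p = 0.000799), with 49.4, 48.8 and 49.8 CPM in the cKO and 45.6, 43.6 and 44.3 in the control and no overlap, and Lef1 did not pass (0.11 ± 0.055, adjusted p = 0.116).

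Whether the genotype difference itself varied by region was tested by interaction contrasts. Between apex and base, 3 members had a higher genotype difference in the apex (7.69%, against 0.855% of all genes) and 1 a lower one (2.56%, against 1.56%): Dkk1 (1.88 ± 0.29, adjusted p = 4.16e-06), Wnt11 (1.27 ± 0.33, adjusted p = 0.00317) and Wnt10b (1.19 ± 0.31, adjusted p = 0.00376) were higher, and Wnt3 (-1.93 ± 0.50, adjusted p = 0.00346) was lower. Between apex and middle, 0 members were higher (against 1.67%) and 2 lower (5.13%, against 1.93%), Wnt2 (-4.36 ± 0.76, adjusted p = 1.48e-05) and Wnt4 (-1.01 ± 0.099, adjusted p = 1.72e-10). Between middle and base, 7 were higher (17.9%, against 2.16%) and 0 lower (against 2.54%). These 7 were Wnt2 (3.51), Dkk1 (2.27), Wnt6 (1.41), Wnt11 (1.32), Wnt10b (1.31), Wnt4 (1.19) and Sfrp4 (1.07). DESeq2 called 4, 2 and 7 members in the 3 contrasts, against 1.99%, 2.88% and 3.82% of the genes it tested. With limma on log2(FPKM + 1) all these calls but that of Sfrp4 fell short of the fold threshold, at 0.27 to 0.99 in absolute size. On log2(FPKM + 0.1) Wnt11 fell short at 0.80 between apex and base and at 0.53 between middle and base, Wnt10b at 0.998 between apex and base, and Wnt4 at −0.99 between apex and middle.

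Wnt4, a ligand of mesenchymal and epithelial tissues, reversed its side between regions. Control values of Wnt4 were 20.1, 20.5 and 22.3 CPM in the control base, 13.5, 14.7 and 13.7 in the control middle and 13.1, 10.9 and 11.6 in the control apex. Values of Wnt4 in cKO mice were 14.6, 13.6 and 16.1 CPM in the cKO base, 21.9, 23.1 and 22.4 in the cKO middle and 9.44, 8.22 and 10.1 in the cKO apex. The cKO was below the control in base (-0.51 ± 0.063) and apex (-0.34 ± 0.078) and above it in the middle (0.67 ± 0.06), each under the fold threshold. The call of its contrast between apex and middle was lost without control middle replicate 1 or 3, control apex replicate 1, cKO middle replicate 2 or cKO apex replicate 2, at −0.93 to −0.99. That of Wnt10b between apex and base was lost without control apex replicate 1, at 0.98.

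Other genes of the pathway were read from 4 lists. Of all genes, 1.2% to 3.81% were called each way per comparison along the axes and 0.514% to 2.51% between the genotypes. The few calls in lists this short cannot be set apart from those shares. Of 26 tested genes of Wnt secretion and the cell surface, Kremen2, a receptor that works with Dkk1, rose from base to apex in the control (1.07 ± 0.30, adjusted p = 0.00251) and in the cKO (1.19 ± 0.38, adjusted p = 0.00857) at 4 to 38 counts a library. Its control call was lost without control apex replicate 2 (0.81), and its cKO call without cKO base replicate 1 (0.93) or cKO apex replicate 3 (0.97). Both were lost on log2(FPKM + 1) at 0.27 and 0.205 and on log2(FPKM + 0.1) at 0.80 and 0.81. Sost, the osteocyte antagonist of Lrp5 and Lrp6, stood at 25.1, 26.000 and 24.1 CPM in the control base, 12.5, 11.7 and 11.9 in the control middle and 8.84, 8.77 and 9.04 in the control apex. The cKO pools gave 20.7, 20.8 and 19.98 CPM in the cKO base, 28.7, 28.3 and 30.4 in the cKO middle and 16.3, 16.7 and 17.1 in the cKO apex. Control apex and middle were below the base (-1.57 ± 0.051, adjusted p = 2.6e-24 and -1.09 ± 0.047, adjusted p = 5.61e-20) and the cKO middle was above the control middle (1.26 ± 0.045, adjusted p = 1.2e-22), as for Dkk1. On log2(FPKM + 1) the step to the control middle fell short at −0.98. No other gene of this list was called along either axis or between the genotypes.

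Of 25 intracellular relay genes, Nkd2, which restrains Dishevelled, was higher in the control apex than in the middle (1.18 ± 0.05, adjusted p = 1.57e-20; 0.98 on log2(FPKM + 1)), and no other was called along an axis or between the genotypes. Of 14 planar cell polarity genes, Daam2, a formin that binds Dishevelled, was lower in the apex than in the base of the control (-1.38 ± 0.025, adjusted p = 3.68e-32) and of the cKO (-1.36 ± 0.026, adjusted p = 4.4e-31). It averaged 219.8 ± 1.3 and 88.3 ± 3.2 CPM in the control base and apex and 211 ± 6.2 and 84.2 ± 1 in the cKO. Of 12 genes known to respond to the pathway, Sp5, a direct target in many tissues, rose from base to apex in the control (1.07 ± 0.24, adjusted p = 0.000339). It stood at 0.964, 0.971 and 0.818 CPM in the control base and 1.89, 2.09 and 2.16 in the control apex. This control call was lost with limma on log2(FPKM + 1) at 0.45 and on log2(FPKM + 0.1) at 0.95. In the cKO it was higher in the apex than in the middle (1.24 ± 0.24, adjusted p = 6.17e-05), a call lost on log2(FPKM + 1) at 0.49 and without cKO middle replicate 1 (0.98) or cKO apex replicate 1 (0.94). The 12 response genes had a median log2 difference of 0.11 between control apex and base and 0.046 between cKO and control apex. Of them 0 were called between the genotypes in any region, against 0.514% to 2.51% of all genes each way.

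Because each group is a single pool, members were also tested over the 6 pools, their libraries summed, at an adjusted p under 0.05 with no fold threshold. Each cochlea was separated into its regions, so the regional pools of a genotype may share animals. These fits treat the pools as independent. With genotype as a factor, 8 of 43 members tested were called between apex and base, against 7.08% of 19446 genes. Notum and Notumos, which share exon bases, both count among the 8. Higher in the apex were Notumos (1.77 ± 0.15, adjusted p = 0.0132), Sfrp1 (1.16 ± 0.20, adjusted p = 0.0431), Notum (1.09 ± 0.095, adjusted p = 0.0132), Wif1 (0.93 ± 0.18, adjusted p = 0.049997) and Dkk2 (0.86 ± 0.12, adjusted p = 0.0305). Lower were Sfrp4 (-3.204 ± 0.28, adjusted p = 0.0132), Wnt16 (-1.37 ± 0.22, adjusted p = 0.0388) and Wnt5a (-0.36 ± 0.067, adjusted p = 0.0492). DESeq2 called 16 members, 41.0% of those it tested, against 14.9% of all genes. The fit without both middle pools called 20, 46.5% against 16.6%, and all 8 were among those called in every setting tried. With region as a factor, 0 of 43 members and 0% of 19446 genes were called between the genotypes by edgeR, and 0 members by DESeq2, against 1.92% of its genes, and 0 by the fit without both middle pools, against 0.00523%. At an unadjusted p under 0.05 there were 4 members, 9.30%, against 11% of all genes. They were Fzd6 (-0.25 ± 0.048), Fzd9 (0.22 ± 0.055), Fzd4 (0.197 ± 0.065) and Wnt2b (0.35 ± 0.13). Their adjusted p ran from 0.254 to 0.4502.

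Several members are neighbours on the genome: Wnt6 and Wnt10a lie 6.2 kb apart on chromosome 1, Wnt10b and Wnt1 11.7 kb apart on chromosome 15, Wnt3a and Wnt9a 16.2 kb and Wnt9b and Wnt3 24.3 kb apart on chromosome 11. In each pair 1 gene passed the filter for the tests between libraries (Wnt6, Wnt10b, Wnt9a and Wnt3). The other had at most 67 counts over all 18 libraries.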

How the data were processed

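RNA of 6 pools (base, middle and apex of the control and Fst cKO cochlea at 4 weeks) was sequenced as 3 technical libraries each, made by TruSeq RNA v2 with removal of ribosomal RNA, per the labels. Tools credited in the submitters' processing notes are STAR 2.5.2b and Cuffdiff 2.2.1, on GRCm38/mm10, with no role given for either, and the step that made the counts is not given in the sources used here. The count columns deposited by the authors hold expected counts per gene and library, not scaled to a common total. They were taken as such because not every value was whole. Of the values of a library, zeros included, 89.2% to 89.9% were whole within 1e-06. FPKM values were deposited by the authors per library, and every library column was used.

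Rounded counts were fitted with edgeR 4.0.16 under R 4.3.3, on the 17901 genes that filterByExpr kept, with TMM factors between 0.977 and 1.03. Two-sided quasi-likelihood F tests used 1 design of 6 groups (12 residual degrees of freedom). Benjamini-Hochberg adjustment was over all genes tested. The common biological coefficient of variation was 0.00988 between libraries, which is technical, and 0.116 between the 6 summed pools after region and genotype (2 residual degrees of freedom). CPM was the count over the library total, with SD over 3 libraries, and a floor of 3 counts covers counting error only. Libraries of 1 pool differed by a chi-square of 1.19 to 1.59 per degree of freedom over genes with at least 20 counts and were kept apart. Alternatives were RLE factors, library totals alone, no filter, DESeq2 1.42.0, a replicate block, other thresholds, limma 3.58.1 on log2(FPKM + 1) and log2(FPKM + 0.1) of genes above 0.1 FPKM, leaving out each library and, for the pools, both middle pools. The tests were checked on simulated counts.

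Named were the members called between genotypes, along the control axis or over the pools, the 3 of highest FPKM per role, 9 members always, and of the other pathway genes the 3 of largest change per list and comparison. Members called only along the cKO axis or in an interaction contrast (Wnt11 and Wnt4), the antisense genes and the genomic neighbours were named after their values were seen. The members, gene lists and tests were chosen with earlier results of these data known. Replicate numbers were not used to pair the libraries in the main fit. Same-numbered libraries of different groups had correlations of their deviations from −0.14 to 0.28 (median 0.0086). Those of other-numbered libraries ran from −0.23 to 0.114 (median −0.0018), so the highest same-numbered value lay above all of them. Positions came from GENCODE M21 and promoters from RefSeq (GRCm38.p6).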

Additional observations from a re-analysis of the deposited data

Results flagged for a closer look

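For 8 members the genotype difference itself differed between regions, by a test of that difference between technical libraries of 1 pool per group. Between apex and base, the log2 difference of the genotype effects was 1.88 for Dkk1, 1.27 for Wnt11, 1.19 for Wnt10b and -1.93 for Wnt3. Between apex and middle it was -4.36 for Wnt2 and -1.01 for Wnt4. Between middle and base it was 3.51 for Wnt2, 2.27 for Dkk1, 1.41 for Wnt6, 1.32 for Wnt11, 1.31 for Wnt10b, 1.19 for Wnt4 and 1.07 for Sfrp4. On log2(FPKM + 0.1) with limma those of Wnt11 were 0.80 and 0.53, under the fold threshold. So were that of Wnt10b between apex and base, at 0.998, and that of Wnt4 between apex and middle, at −0.99. On log2(FPKM + 1) all but that of Sfrp4 fell short. The same Wnt10b and Wnt4 calls were also lost in fits without 1 library. A positive value means a higher cKO level relative to the control in the first region than in the second. The bone and central neuron marker sums of the pools also differed between these groups, and their part was not tested.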

How the results depend on the processing

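Of 1297 alternative values of the 85 called log2 values, 0 reversed. They include 77 values at adjusted p alone and 77 at a fold of at least 1.5. These apply a looser rule to the same fit, so they could neither reverse nor be lost. Calls were lost for 45 of 77 with limma on log2(FPKM + 1), whose pseudocount shrinks changes of low genes, for 11 of 77 on log2(FPKM + 0.1), for 16 of 564 fits without 1 library, for 1 of 85 with library totals alone and for 1 of 77 under the replicate block (Wnt10b, control middle against base, −0.99975). In the order apex, middle, base for cKO against control; apex-base, apex-middle, middle-base for control, for cKO and for the interaction contrasts, members called by adjusted p alone numbered 28, 23 and 20; 30, 31 and 28; 32, 33 and 27; and 23, 26 and 21. At a fold of at least 1.5 they numbered 5, 7 and 1; 14, 15 and 10; 10, 13 and 5; and 6, 9 and 10. On log2(FPKM + 1) they numbered 0, 0 and 0; 5, 6 and 1; 3, 4 and 0; and 0, 0 and 1, and on log2(FPKM + 0.1) the contrast between apex and middle had 1. By adjusted p alone, 16.5% to 21.8% of all genes were higher and 17.7% to 19.6% lower between the genotypes. Shares of all genes by that rule along the axes and in the contrasts, and at a fold of 1.5, are not given here. Those member counts therefore cannot be judged against all genes. Without 1 library the counts ran from 1 to 2 for cKO against control in the apex (2 without control apex replicate 2), 0 to 1 in the base, and 1 to 2 for the contrast between apex and middle. Over the 6 pools, apex against base had 16 members with DESeq2 and 20 without both middle pools, and genotype 0 in each. In the fit with a replicate block the other counts were 1, 3 and 1 between genotypes, 10, 9 and 5 along the control axis, 4, 7 and 2 along the cKO axis and 4, 2 and 7 in the contrasts, so it changed no other call. A single pool per group leaves the spread between animals unmeasured. Wnt2, Wnt3, Dkk1, Wnt10b, Wnt11, Sfrp2, Kremen2 and Sp5 rest on fewer than 115 counts a library.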
